A study of Homo sapiens with 5 samples.

Results

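Solute carrier genes were described in MCF12A cells, an immortal human breast epithelial line that does not form tumours. They were all genes whose symbol starts with SLC and a digit. A gene was followed where its brightest probe set with a single symbol reached the median intensity of its table on at least 1 array. That median, called the floor here, was 70.2 in the table of 3 arrays and 92.0 in the table of 2 arrays. Of 378 solute carrier symbols in the tables, 252 passed the floor in at least 1 table, out of 13026 genes of any kind that did. The number past the floor was 200 of 359 in the table of 3 arrays and 243 of 376 in the table of 2 arrays, with 191 past it in both. The other 126 stayed under the floor in every table that held them. Just inside the floor of the first table lay SLC2A4 and SLC6A19, each at 71.0, and just outside it SLC2A10 at 69.3 and SLC8A2 at 69.2. In the second table the nearest genes inside were SLC39A5 at 94.6 and SLC12A3 at 97.7, and outside SLC67A2 at 90.8 and SLC30A2 at 89.4.

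Each of 5 monolayer cultures gave RNA for 1 Affymetrix Gene ST array, so every group is a single array. All cultures shared a medium with 2.5% horse serum, bovine insulin, cholera toxin, hydrocortisone and epidermal growth factor. The first table held an untreated control, cells kept for 4 weeks in 2.5% ethanol and cells kept for 4 weeks in 1% acetaldehyde, the oxidation product of ethanol. The second table held a clone and its own control. The clone is 1 clone of cells that formed a colony without attachment, in soft agar, and was then returned to plates. Its label gives 2.5% ethanol for 4 weeks, whereas the design text gives 2.5 mM for the cells put into agar. Its control is labelled unexposed but also carries the soft agar tag, so whether the control went through agar was not settled. The protocols pair one array design with 1-week and another with 4-week exposures, yet the clone, labelled with 4 weeks, was on another design than the other 4-week cultures. No level was therefore set across the tables. With 1 array per group no spread between cultures can be estimated, so no test was run, and each fold below compares 1 array with 1 array.

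Solute carriers are membrane proteins that move amino acids, sugars, ions, metals, vitamins, nucleotides and metabolites across the plasma membrane and the membranes of organelles. They work as uniporters, cotransporters or exchangers and do not split ATP themselves. Some need a partner, such as the heavy chain SLC3A2 that carries the light chains SLC7A5, SLC7A8 and SLC7A11 to the cell surface. Dividing epithelial cells depend on carriers for glucose, glutamine, essential amino acids and cystine. Several amino acid carrier genes are known targets of ATF4, a transcription factor of the amino acid response.

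Epithelial identity was checked with 8 marker genes. All 8 reached the floor on every array except that of the clone, where 6 did. Their summed intensity was 11056 in the control, 8214 in ethanol and 11913 in acetaldehyde, and 23151 in the control of the clone against 10298 in the clone. The intensity of CDH1, which encodes E-cadherin, was 1114 in the control, 117 in ethanol and 1262 in acetaldehyde, and went from 920 to 43.6 in the clone. The markers did not move together. KRT14 and EPCAM were also at least 2-fold lower in ethanol and in the clone, and KRT5 in the clone only. KRT8 went the other way in ethanol, from 1474 in the control to 3068, and was under 2-fold in the clone. KRT18, KRT19 and GATA3 were under 2-fold in both. The summed level of 6 fibroblast markers lay between 434 and 509 among the 3 arrays, and was 771 in the control of the clone and 1627 in the clone, with 3 to 5 of the 6 at the floor or above. Of the markers of other cell types, 1 of 4 leukocyte, 0 of 3 endothelial and 1 of 3 adipocyte genes reached the floor on each array, and none was listed at 0. The part of these marker differences in the carrier values was not tested, and fewer cells of a kind and less RNA per cell cannot be told apart in RNA from whole cultures.

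Ethanol was set against the untreated control to see which carriers differ after the exposure. The 8 carriers at least 2-fold lower were the amino acid carriers SLC7A11, SLC1A4, SLC7A5 and SLC3A2, the SLC6 family members SLC6A14 and SLC6A9, the orphan SLC10A5 and the glucose carrier SLC2A1. Of 200 solute carrier genes past the floor, they make up 4.0%, beside 2.44% of all genes. The number at least 2-fold higher was 3, or 1.5% beside 2.63% of all genes. With values under the floor raised to it, 7 were lower and 2 were higher, and SLC6A14 and SLC47A1 were the ones lost. The median log2 difference was 0.00 for the carriers and 0.00 for all genes. For 39 of the 200 carriers the values in ethanol and control were equal within 1e-06 on the log2 scale, a share of 19.5% beside 30.7% of all genes. At 1.5-fold, 13 carriers were higher, 6.5% beside 5.3% of all genes, and 16 were lower, 8.0% beside 5.11%.

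Acetaldehyde moved few carriers. Of 197 past the floor against the same control, 1 was at least 2-fold higher, or 0.508% beside 1.03% of all genes, and that gene was SLC7A2. Likewise 1 was at least 2-fold lower, SLC10A5, where the background over all genes was 0.0536%. At 1.5-fold 1 was higher, beside 2.16% of all genes, and 4 were lower, 2.03% beside 0.411%. Those 4 were SLC10A5, SLC1A4, SLC6A14 and SLC7A11. The median log2 difference was 0.00 for carriers and for all genes. Against ethanol, acetaldehyde had 2 of 198 carriers at least 2-fold higher, SLC6A14 and SLC2A1, a share of 1.01% beside 1.85% of all genes. The single carrier at least 2-fold lower was SLC20A1, a share of 0.505% beside 0.526%. At 1.5-fold 9 were higher, 4.55% beside 3.78% of all genes, and 4 were lower, 2.02% beside 2.22%. The ethanol and acetaldehyde differences share 1 control array, so their values are given side by side for each gene and no agreement between them is counted.

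More carriers were 2-fold from control in the clone than in the first table, and so were more genes of any kind. The tables also differ in how often values are equal. Values equal within 1e-06 on the log2 scale made up 0.196% of all genes for the clone and its control. Against control that share was 30.7% in ethanol and 37.9% in acetaldehyde. The part of this in the larger counts of the clone was not tested. Of 243 past the floor, 43 stood 2-fold or more above the control, 17.7% beside 14.7% of all genes, and 14 stood as far below it, 5.76% beside 5.83%. At 1.5-fold 67 were higher, 27.6% beside 25.6%, and 29 were lower, 11.9% beside 15.2%. These shares lay near the background. The median log2 difference was -0.01 for carriers and -0.02 for all genes. The median over all probe sets of that table lay at -0.17, and centring on it turned the carriers' median to 0.16, so the sign of a median near 0 in the clone depends on the scaling. In 18 of the 43 higher genes the control array lay under the floor, and in 3 of the 14 lower genes the clone did. SLC26A2, SLC25A24 and SLC35B4 were under the floor on that control but past it on every array of the first table. SLC7A2 was under the floor on both controls. With 1 array each, a low value in the control and a gain in the clone cannot be told apart. With dim values raised to the floor, 39 were higher and 12 were lower. The 243 genes include 9 that carry the name but were put in no transport class, such as antisense RNAs and pseudogenes. Of these, 1 is among the 43, SLC35E2A, and 1 among the 14, SLC25A5-AS1. SLC35E2A and SLC35E2B are of the SLC35 family by name, but were not placed in a class and are not in the SLC35 counts below. Among the 200 of the other table, 3 are of that kind. For genes with an array under the floor a fold is a lower bound, the brighter value divided by the floor.

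**Figure D1:**
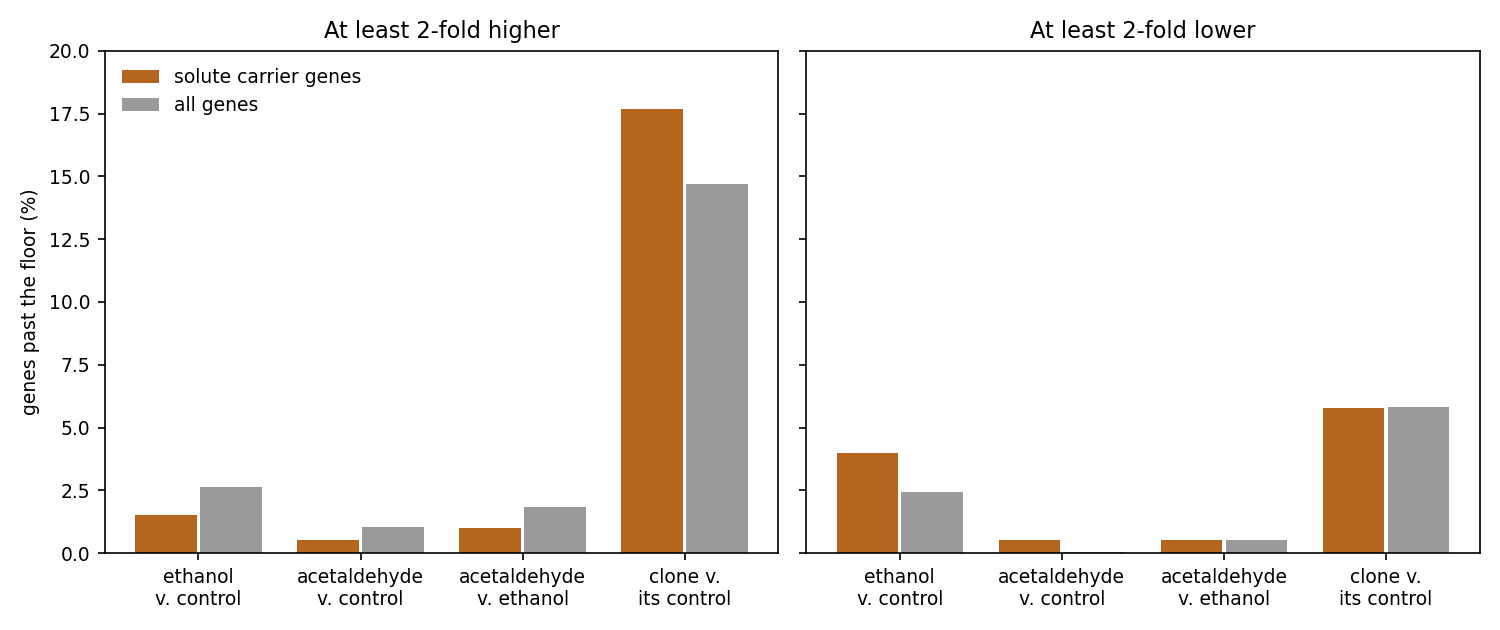
Bars give the percent of genes past the floor that were at least 2-fold higher (left) or lower (right) in each comparison, for solute carrier genes (brown) and all genes (grey), each from 1 array against 1 array. The clone has the tallest bars, 17.7% of carriers higher beside 14.7% of all genes, and in ethanol the lower bar of carriers, 4.0%, stands above the 2.44% of all genes.

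Among the carriers of amino acids, which supply protein synthesis and glutathione, 26 of 42 measured genes passed the floor in the table of 3 arrays. In ethanol 4 of them were at least 2-fold lower, 15.4% beside 2.44% of all genes, and 1 was at least 2-fold higher, 3.85% beside 2.63%. The class median was -0.00. In acetaldehyde, with 25 past the floor, 1 was higher, 4.0% beside 1.03% of all genes, and 0 were lower, beside 0.0536%. In the clone, with 27 of 43 past the floor, 8 were higher, 29.6% beside 14.7% of all genes, and 4 were lower, 14.8% beside 5.83%, around a median of 0.39. The lower genes in ethanol included the light chain SLC7A5 and its heavy chain SLC3A2.

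SLC7A5 exchanges large neutral amino acids such as leucine across the plasma membrane. Its intensity was 3946 in the control, 1677 in ethanol and 2954 in acetaldehyde, with ethanol lowest and acetaldehyde between. That is a log2 difference of -1.23 for ethanol, a fold of 2.35 lower, and of -0.42 for acetaldehyde. In the other table it was 4669 in the control and 1359 in the clone, a log2 difference of -1.78 and a fold of 3.44 lower. SLC3A2, the heavy chain, had the same order of arrays. Its intensity was 2397 in the control, 1035 in ethanol and 1717 in acetaldehyde, with log2 differences of -1.21 and -0.48. It was 2390 in the control of the clone and 817 in the clone, a log2 difference of -1.55. SLC7A8, another light chain for neutral amino acids, shared the fall in the clone but not that in ethanol. It read 109 in the control and 107 in ethanol and in acetaldehyde, and fell from 389 to 124 in the clone, a log2 difference of -1.64.

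SLC7A11, the light chain that exchanges cystine for glutamate, was 877 in the control, 281 in ethanol and 548 in acetaldehyde. Ethanol was again the lowest array, with a log2 difference of -1.64 and a fold of 3.12 lower, and acetaldehyde stood at -0.68. The clone did not show this drop, with 159 in its control and 209 in the clone, a log2 difference of 0.39. SLC1A4, an exchanger of serine, alanine and cysteine, was 329 in the control, 113 in ethanol and 187 in acetaldehyde. Its log2 differences were -1.54 and -0.81. In the second table both values, 81.9 and 68.8, lay under the floor.

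SLC1A5, the exchanger that brings in glutamine, came close to 2-fold in ethanol and passed it in the clone. Its intensity was 1802 in the control, 934 in ethanol and 1333 in acetaldehyde, and the log2 difference in ethanol was -0.95. It was 2647 in the control of the clone and 716 in the clone, a log2 difference of -1.89 and a fold of 3.70 lower. A dimmer second probe set of this gene had a log2 difference of -0.01 in ethanol and -0.83 in the clone, so its size depends on the probe set. SLC7A1, the widespread carrier of arginine and lysine, was 1102 in the control, 662 in ethanol and 785 in acetaldehyde, and its log2 difference in ethanol was -0.74.

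SLC7A2, another carrier of arginine and lysine, was higher in ethanol, where SLC7A11, SLC1A4, SLC7A5 and SLC3A2 were at least 2-fold lower. By the values as deposited it was the only solute carrier gene at least 2-fold from control, the same way, in ethanol, acetaldehyde and the clone. In the clone that rests on a control value under the floor. Set at the floor, that control gave a log2 difference of 0.91, under 2-fold. Its intensity was 65.9 in the control, under the floor, 328 in ethanol and 197 in acetaldehyde. The log2 difference was 2.32 in ethanol, at least 4.68-fold higher, and 1.58 in acetaldehyde, at least 2.80-fold higher. It was 39.3 in the control of the clone, also under the floor, and 173 in the clone, a log2 difference of 2.14 and at least 1.89-fold higher.

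**Figure D2:**
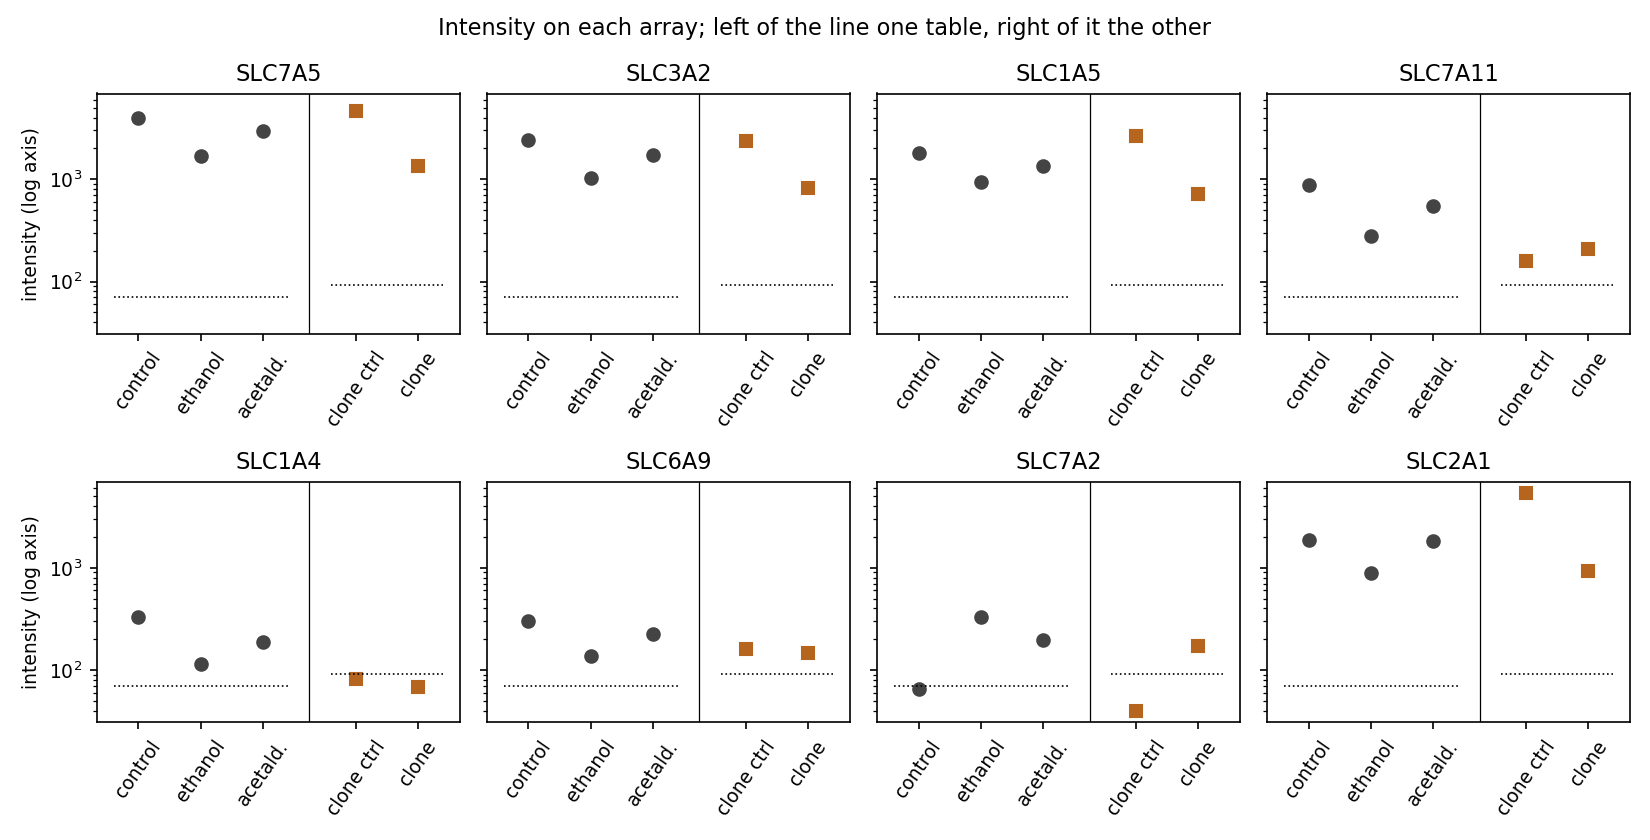
Each panel plots the intensity of 1 gene on a log axis, with the untreated control, ethanol and acetaldehyde arrays as dots on the left and the control of the clone and the clone as squares on the right, and dotted lines at the floors of 70.2 and 92.0. SLC7A5, SLC3A2 and SLC1A5 are lowest in ethanol on the left and lower in the clone on the right, SLC7A2 is higher in ethanol, acetaldehyde and the clone, and levels of different tables or genes are not on one scale.

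Other amino acid carriers were higher in the clone than in its control, among them carriers of acidic amino acids. SLC1A1, a glutamate and aspartate carrier, was 53.1 in the control of the clone and 211 in the clone, a log2 difference of 1.99 and at least 2.30-fold higher. It was 51.0, 84.5 and 63.8 in the control, ethanol and acetaldehyde. SLC36A4, of the proton-coupled amino acid carriers, was 51.4 in the control of the clone and 205 in the clone, at least 2.23-fold higher, and 248, 373 and 266 on the arrays of the first table. SLC38A1, a sodium-coupled glutamine carrier, was 1721 in the control of the clone and 3690 in the clone, a log2 difference of 1.10. In ethanol SLC38A1 lay on the other side, at 2877 against 3946 in the control. Of the SLC38 family, 3 of 8 past the floor were at least 2-fold higher in the clone, 37.5% beside 14.7% of all genes. The family median there was 0.85. In ethanol 0 of 7 were higher, beside 2.63% of all genes.

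Promoters of lowered amino acid carriers are shown because several of these genes are known for control by amino acid supply. The genes taken were the amino acid carriers at least 2-fold lower in ethanol, with SLC6A9 and SLC1A5 added by choice. SLC1A5 was under 2-fold in ethanol. SLC7A11 had no window to search, and SLC7A1 was not searched. Matches among genes chosen in this way are no measure of enrichment. Windows of 250 bases before to 50 bases after the RefSeq starts of build GRCh38.p14 were searched on both strands for TGATGNAA. This core of C/EBP-ATF response elements was the only motif searched. It was present in 3.62% of 35116 windows, 4.46% of 27305 genes and 21 of 342 solute carrier genes, which is 6.14%. SLC1A4 had it in 1 of 2 windows, SLC1A5 in 1 of 3 and SLC3A2 in 1 of 3. The single windows of SLC7A5 and of SLC6A9 held no match. A match is a run of letters and no measured site. The stretches around the matches lie at chr2:64989381-64989410 on the plus strand for SLC1A4, chr11:62881719-62881748 on the plus strand for SLC3A2 and chr19:46784893-46784922 on the minus strand for SLC1A5. They are written 5′ to 3′ along the strand of the gene with the match in capitals, which reads as the reverse complement in SLC1A4 and SLC3A2. The 250 bases before the start of SLC7A5, at chr16:87869508-87869757 on the minus strand, are the promoter of the light chain that SLC3A2 carries and come last.
SLC1A4: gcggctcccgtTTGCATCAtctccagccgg
SLC3A2: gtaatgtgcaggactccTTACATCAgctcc
SLC1A5: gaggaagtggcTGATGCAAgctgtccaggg
SLC7A5: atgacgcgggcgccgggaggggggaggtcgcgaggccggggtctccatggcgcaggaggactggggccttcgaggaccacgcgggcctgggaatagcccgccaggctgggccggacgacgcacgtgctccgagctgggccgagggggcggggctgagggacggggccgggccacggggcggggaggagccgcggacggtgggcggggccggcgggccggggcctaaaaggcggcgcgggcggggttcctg

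The SLC6 family couples the uptake of neurotransmitters, creatine, osmolytes and some amino acids to sodium and chloride. Of the class of neurotransmitter, creatine and osmolyte carriers, 7 of 18 passed the floor in the first table. By the deposited values 2 of the 7 were counted as at least 2-fold lower in ethanol, 28.6% beside 2.44% of all genes. In 1 of these 2 the ethanol array lay under the floor. That gene, SLC6A14, carries neutral and cationic amino acids and had a log2 difference of -2.43. Its intensity was 127 in the control, 23.6 in ethanol and 76.9 in acetaldehyde, so the fold is at least 1.81 lower, and raising ethanol to the floor gave a log2 difference of -0.86, under 2-fold. SLC6A9, a glycine carrier, was 300 in the control, 137 in ethanol and 225 in acetaldehyde, log2 differences of -1.13 and -0.42. In the clone 0 of 9 carriers of this class differed by 2-fold, beside 14.7% of all genes higher and 5.83% lower. SLC6A9 stood at -0.15 there.

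Sugar carriers differed in both directions in the clone. SLC2A1, the main glucose carrier of many dividing cells, was 5395 in the control of the clone and 934 in the clone. That log2 difference of -2.53, a fold of 5.78 lower, was the largest fall of any solute carrier gene past the floor there. In the other table SLC2A1 was 1875 in the control, 897 in ethanol and 1837 in acetaldehyde. Ethanol alone was low, with a log2 difference of -1.06 against -0.03 for acetaldehyde. SLC2A3, a glucose carrier of high affinity, was 61.4, 73.7 and 72.5 in the control, ethanol and acetaldehyde, and under the floor in the clone and its control. In the clone 4 of 19 sugar carriers past the floor were at least 2-fold lower, 21.1% beside 5.83% of all genes, and 3 were at least 2-fold higher, 15.8% beside 14.7%, around a median of -0.30. SLC5A3, which brings in the osmolyte myo-inositol and is counted here by its family number, fell from 1167 to 430 in the clone, a log2 difference of -1.44. A probe set shared by MRPS6 and SLC5A3 went from 640 to 379, a log2 difference of -0.76. SLC50A1, a glucose carrier of the SWEET type, fell from 2797 to 1187, a log2 difference of -1.24. SLC45A4 fell from 208 to 93.7 by its brighter probe set, a log2 difference of -1.15, whereas its other probe set gave 0.00. The higher ones included SLC37A3, which went from 182 to 529, a log2 difference of 1.54. They also included SLC2A9, which carries urate and had a log2 difference of 1.14.

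Of the carriers of lactate, pyruvate and other carboxylates, 7 of 16 passed the floor in the first table. None was 2-fold from control in ethanol or acetaldehyde. Of all genes, 2.63% were higher and 2.44% lower in ethanol, and 1.03% and 0.0536% in acetaldehyde. SLC16A13 came nearest, at 120 in the control, 60.5 in ethanol and 97.2 in acetaldehyde, a log2 difference in ethanol of -0.99. Its ethanol array lay under the floor, so the fold is at least 1.71 lower. The other annotation gives its probe set to SLC16A13 and JOSD1. In the clone 1 of 8 was at least 2-fold higher, 12.5% beside 14.7% of all genes. That gene was SLC16A4, from 199 to 424. The main lactate carriers SLC16A1 and SLC16A3 were not analysed here. BSG, the chaperone of those lactate carriers, was 3104, 3453 and 3297 in the control, ethanol and acetaldehyde, and 4417 and 5322 in the second table.

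The mitochondrial carriers of the SLC25 family move nucleotides, metabolites and cofactors across the inner membrane. In ethanol 1 of 32 past the floor was at least 2-fold higher, 3.12% beside 2.63% of all genes, and 0 were lower, beside 2.44%. The median was 0.00. That gene was SLC25A30, a kidney mitochondrial carrier by name, at 73.8 in the control, 180 in ethanol and 90.6 in acetaldehyde, a log2 difference of 1.28 in ethanol. In the clone 6 of 38 were higher, 15.8% and near the 14.7% of all genes, and 1 was lower, 2.63% beside 5.83%, again around a median of 0.00. SLC25A24, which exchanges ATP-magnesium for phosphate, went from 66.3 to 565, a log2 difference of 3.09 and at least 6.14-fold higher. On the first table's arrays it was 347, 367 and 356, with no array apart. SLC25A32, which carries folate and flavin adenine dinucleotide, went from 362 to 1623, a log2 difference of 2.16. The annotation of the other table gives the same probe set to SLC25A32 and DCAF13 together, so this value may not be that of SLC25A32 alone. SLC25A13, the aspartate and glutamate exchanger citrin, went from 75.9 to 310, a log2 difference of 2.03, and read 674, 647 and 658 in the first table. SLC25A30 was again higher, from 66.5 to 217. SLC25A5, the ADP and ATP exchanger, was 5704 in the control of the clone and 3292 in the clone, and 3282, 2765 and 3130 in the first table.

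Zinc carriers fall into SLC30 proteins, which move zinc out of the cytosol, and SLC39 proteins, which move it in. In ethanol 0 of 17 past the floor differed by 2-fold, beside 2.63% of all genes higher and 2.44% lower. At 1.5-fold 3 of 17 were higher, all of the SLC39 family, and 0 were lower. Of all genes, 5.3% were higher and 5.11% lower at that fold. The class median was 0.16. SLC39A14 was 443 in the control, 820 in ethanol and 628 in acetaldehyde, and SLC39A13 was 167, 286 and 210. SLC39A10 was 275, 451 and 336. Each of these was highest in ethanol with acetaldehyde between. In the clone 6 of 19 zinc carriers were at least 2-fold higher, 31.6% beside 14.7% of all genes, and 1 was lower, 5.26% beside 5.83%, around a median of 0.28.

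Of the SLC30 family alone, 4 of 7 past the floor were at least 2-fold higher in the clone, 57.1% beside 14.7% of all genes. In the same family 1 was lower, 14.3% beside 5.83%, and the median was 1.17 beside -0.02 for all genes. SLC30A6, which loads zinc into the Golgi, went from 147 to 1008, a log2 difference of 2.77 and a fold of 6.84 higher. On the first table's arrays it was 988, 1105 and 924, all within 1.5-fold of each other. SLC30A7, also of the Golgi, went from 307 to 971, and SLC30A4, of endosomal vesicles, from 88.5 to 287. SLC30A1 went the other way. This exporter of the plasma membrane, known to be induced by zinc, fell from 1310 to 432, a log2 difference of -1.60 and a fold of 3.03 lower. In the first table it was 401 in the control and 398 in both treated cultures. SLC39A14, which was raised below 2-fold in ethanol, went from 284 to 654 in the clone, a log2 difference of 1.20.

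Nucleotide sugar carriers of the SLC35 family feed glycan synthesis in the Golgi and endoplasmic reticulum. In ethanol 0 of 21 past the floor differed by 2-fold, beside 2.63% of all genes higher and 2.44% lower, with a median of 0.00. In the clone 6 of 23 were at least 2-fold higher, 26.1% beside 14.7% of all genes, and 1 was lower, 4.35% beside 5.83%, with a median of 0.37. Among the 6, SLC35F6 has a probe set that the other annotation gives to SLC35F6 and CENPA. SLC35E2A and SLC35E2B, which are not among the 23, had log2 differences in the clone of 1.68 and 0.86. SLC35B4, a carrier of UDP-xylose and UDP-N-acetylglucosamine, went from 63.8 to 402, a log2 difference of 2.65 and at least 4.37-fold higher. It was 329, 436 and 358 in the control, ethanol and acetaldehyde. SLC35E3, SLC35A5 and SLC35F5 had log2 differences in the clone of 1.76, 1.55 and 1.55. The lower gene, SLC35D2, went from 310 to 144 in the clone and was 249 in the control, 161 in ethanol and 218 in acetaldehyde.

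Carriers of inorganic ions and protons set cell volume and pH and bring in sulfate and phosphate. In ethanol 0 of 19 past the floor differed by 2-fold, beside 2.63% of all genes higher and 2.44% lower. In the clone 6 of 27 were at least 2-fold higher, 22.2% beside 14.7% of all genes, and 0 were lower, beside 5.83%. The median in the clone was 0.19. SLC26A2, the sulfate carrier needed to sulfate proteoglycans, was far higher in the clone than in its control. It went from 51.5, under the floor, to 801, a log2 difference of 3.96 and at least 8.71-fold higher. On the first table's arrays it was 604, 912 and 730, a log2 difference of 0.59 in ethanol. SLC9A8, a sodium-proton exchanger of endomembranes, went from 87.5 to 381, a log2 difference of 2.12. SLC9B2 and SLC9D1 stood at 1.39 and 1.38, so that 3 of 6 SLC9 genes past the floor were at least 2-fold higher in the clone. SLC9D1 was also higher in ethanol, at 765 against 400, without reaching 2-fold. SLC20A1, a sodium-phosphate carrier, was 1373 in the control, 2108 in ethanol and 991 in acetaldehyde. The treated arrays lay on opposite sides of the control, and acetaldehyde was lower than ethanol by a log2 difference of -1.09.

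**Figure D3:**
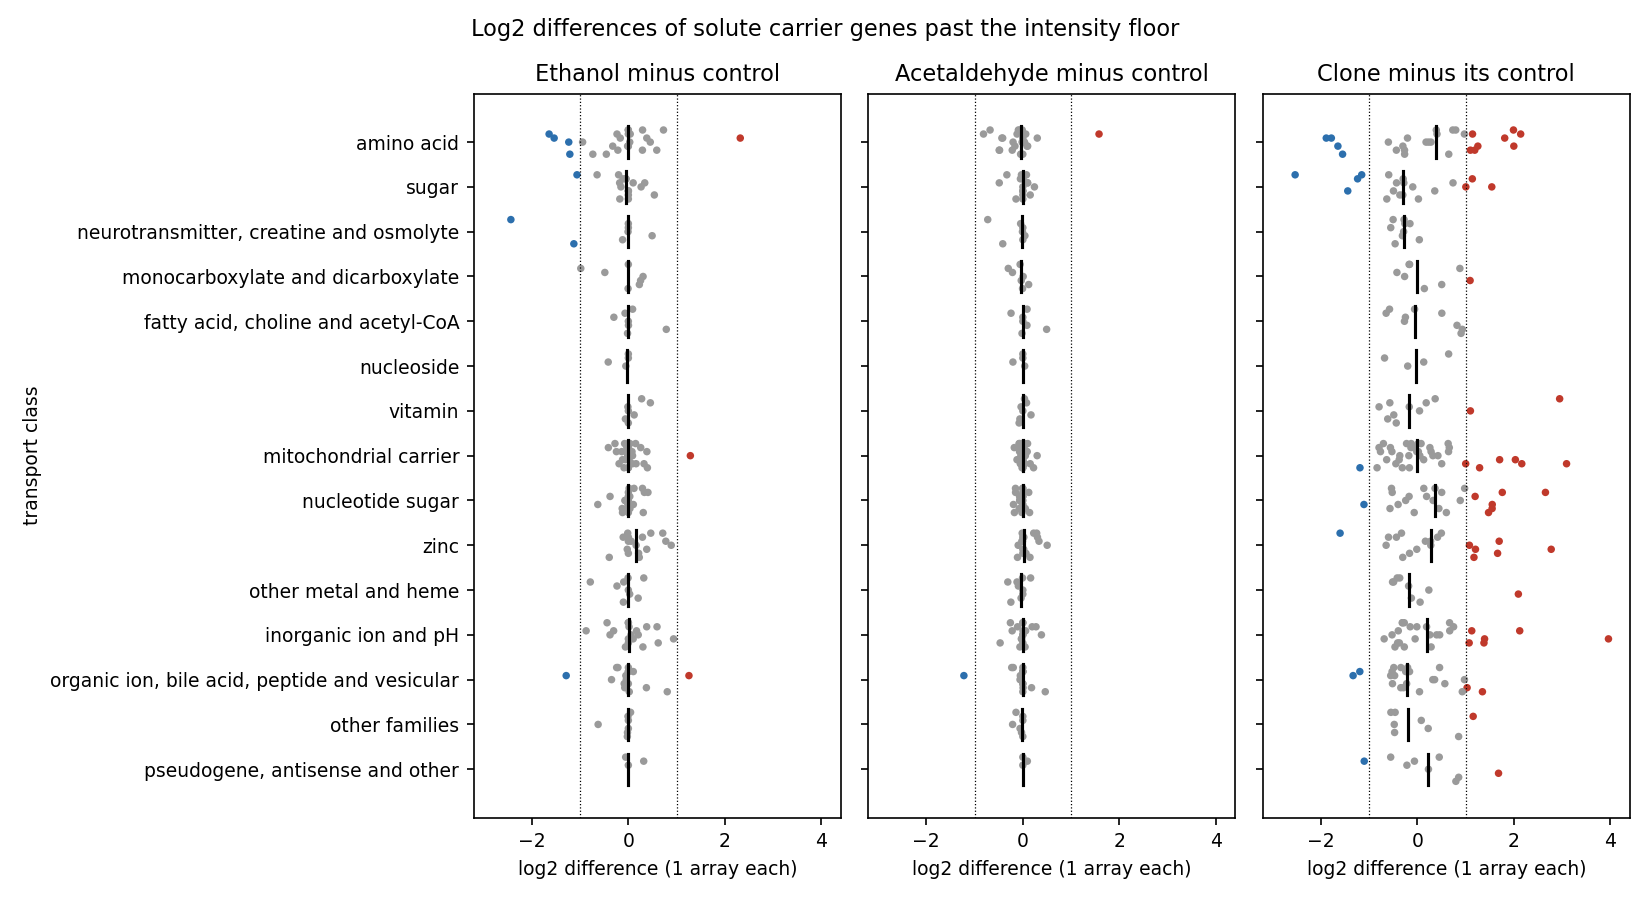
Each dot is the log2 difference of 1 solute carrier gene past the floor, by transport class, for ethanol (left), acetaldehyde (middle) and the clone (right) against their own control arrays, with a bar at each class median and dotted lines at 2-fold. Dots past 2-fold are red or blue. In ethanol most blue dots lie in the amino acid and neurotransmitter rows, acetaldehyde has 1 red and 1 blue dot, and in the clone red dots appear in most rows.

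Vitamin carriers in the first table had 7 genes past the floor and none at 2-fold. Of all genes, 2.63% were higher and 2.44% lower in ethanol, and 1.03% and 0.0536% in acetaldehyde. In the clone 2 of 11 were at least 2-fold higher, 18.2% beside 14.7% of all genes, and 0 were lower, beside 5.83%. SLC46A3, a lysosomal carrier of the folate carrier family, went from 44.1 to 340, a log2 difference of 2.95 and at least 3.70-fold higher. It read 142, 154 and 159 in the first table. SLC23A2, which takes up vitamin C, went from 131 to 280. SLC5A6, the carrier of biotin and pantothenate, was 380, 380 and 361 in the control, ethanol and acetaldehyde, and 224 and 231 in the second table, with no array apart.

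Of the carriers of other metals and of nucleosides, 0 of 9 and 0 of 4 were at 2-fold in ethanol. Of all genes, 2.63% were higher and 2.44% lower. SLC49A4 came nearest, at 1249 in the control, 724 in ethanol and 1007 in acetaldehyde, a log2 difference of -0.79 in ethanol. In the clone SLC41A2, a magnesium carrier, went from 49.8 to 212, a log2 difference of 2.09 and at least 2.31-fold higher. The copper importer SLC31A1 went from 2813 to 2002, a log2 difference of -0.49. The nucleoside carriers SLC29A1 and SLC29A2 were each equal on the 3 arrays of the first table, at 860 and 139, and went from 722 to 1133 and from 447 to 280 in the clone.

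Carriers of fatty acids, choline and acetyl-CoA had no gene at 2-fold in any comparison, over 7 genes past the floor among the 3 arrays and 9 among the pair with the clone. Of all genes, 2.63% were higher and 2.44% lower in ethanol, and 14.7% and 5.83% in the clone. The same shares were 1.03% and 0.0536% in acetaldehyde, and 1.85% and 0.526% in acetaldehyde against ethanol. SLC44A1, a choline carrier, was 566 in the control, 976 in ethanol and 797 in acetaldehyde, and went from 837 to 1568 in the clone, log2 differences of 0.79, 0.49 and 0.91. SLC27A4, a fatty acid transport protein, was 341, 277 and 341, and went from 369 to 311. SLC27A3 was 337, 321 and 284, and went from 187 to 267. Of the SLC27 family SLC27A2 and SLC27A6 were under the floor on every array.

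Among organic ion, bile acid, peptide and vesicular carriers, 17 of 49 passed the floor in the first table. In ethanol 1 was higher and 1 was lower, 5.88% each beside 2.63% and 2.44% of all genes. SLC10A5, an orphan of the bile acid carrier family, was 155 in the control, 63.5 in ethanol and 66.5 in acetaldehyde. Both treated arrays lay under the floor, so it was at least 2.21-fold lower in each, with log2 differences of -1.29 and -1.22. It was under the floor in the clone and its control. SLC47A1, a proton-coupled exporter of organic cations, was 53.2 in the control, 127 in ethanol and 63.8 in acetaldehyde, a log2 difference of 1.26 in ethanol and at least 1.81-fold higher and 0.85 on the log2 scale with its control raised to the floor. It went from 65.0 to 124 in the clone, a log2 difference of 0.93. In the clone 2 of 23 were higher, 8.7% beside 14.7% of all genes, and 2 were lower, 8.7% beside 5.83%. SLC17A5, the lysosomal sialic acid carrier, went from 463 to 1178, and was 269, 470 and 371 in the first table. SLC10A6, which carries sulfated steroids, went from 149 to 59.4, a log2 difference of -1.33 and at least 1.62-fold lower.

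**Figure D4:**
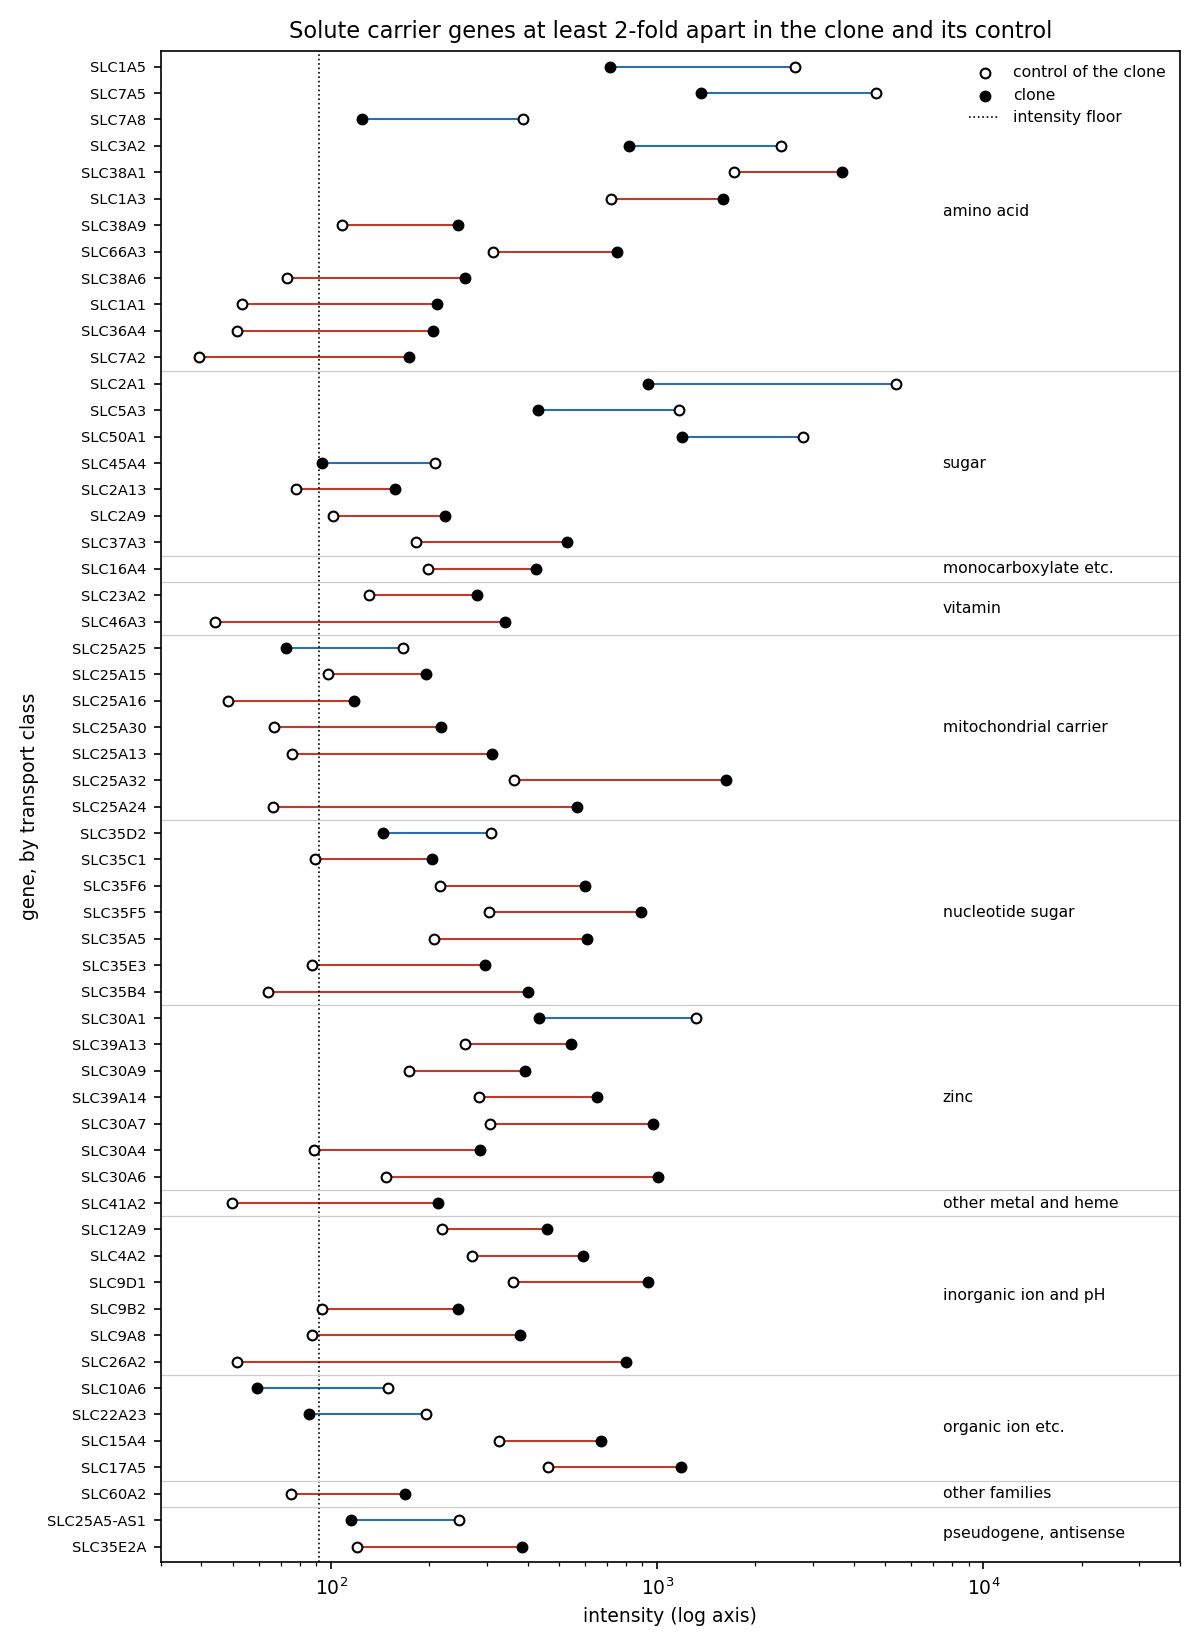
Every solute carrier gene at least 2-fold apart in the clone (filled) and its control (open) is drawn on a log intensity axis, grouped by transport class, with a dotted line at the floor of 92.0. Red lines mark the 43 higher genes and blue lines the 14 lower ones. SLC2A1, SLC7A5 and SLC1A5 are blue lines that start at high intensity, and 18 red lines start left of the floor.

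The ethanol and clone comparisons share no array, so their carriers were set side by side for the 191 genes past the floor in both. Of 3 higher in ethanol and 41 higher in the clone, 2 were shared, SLC7A2 and SLC25A30, which is 66.7% of the ethanol list and 4.88% of the clone list. Of 5 lower in ethanol and 12 lower in the clone, 3 were shared, SLC7A5, SLC3A2 and SLC2A1, which is 60.0% and 25.0%. No carrier was 2-fold in opposite directions. Of all genes, 3 of the 279 higher in ethanol and 3 of the 245 lower in ethanol were. Over all 10503 genes past the floor in both, 2.18% were past 2-fold upwards and 1.87% past it downwards in both. These shared genes made up 82.1% and 80.0% of the ethanol lists and 13.7% and 30.2% of the clone lists. Across the 191 carriers the log2 differences had a Pearson r of 0.46 and a Spearman rho of 0.45, beside 0.59 and 0.37 across all genes, as a description of genes that share arrays. Of the 53 carriers with a 2-fold difference in the clone that also passed the floor in ethanol, 38 were within 1.5-fold of control in both ethanol and acetaldehyde. That is 71.7%, and the same share over all genes was not computed. Most genes were near control in ethanol in any case, with 10091 of all 11264 past the floor within 1.5-fold. The 6 carriers furthest apart in opposite directions included SLC9A9, SLC12A2, SLC6A6 and SLC19A2, with log2 differences in ethanol of -0.87, -0.44, 0.49 and 0.46 and in the clone of 0.40, 0.67, -0.46 and -0.57.

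**Figure D5:**
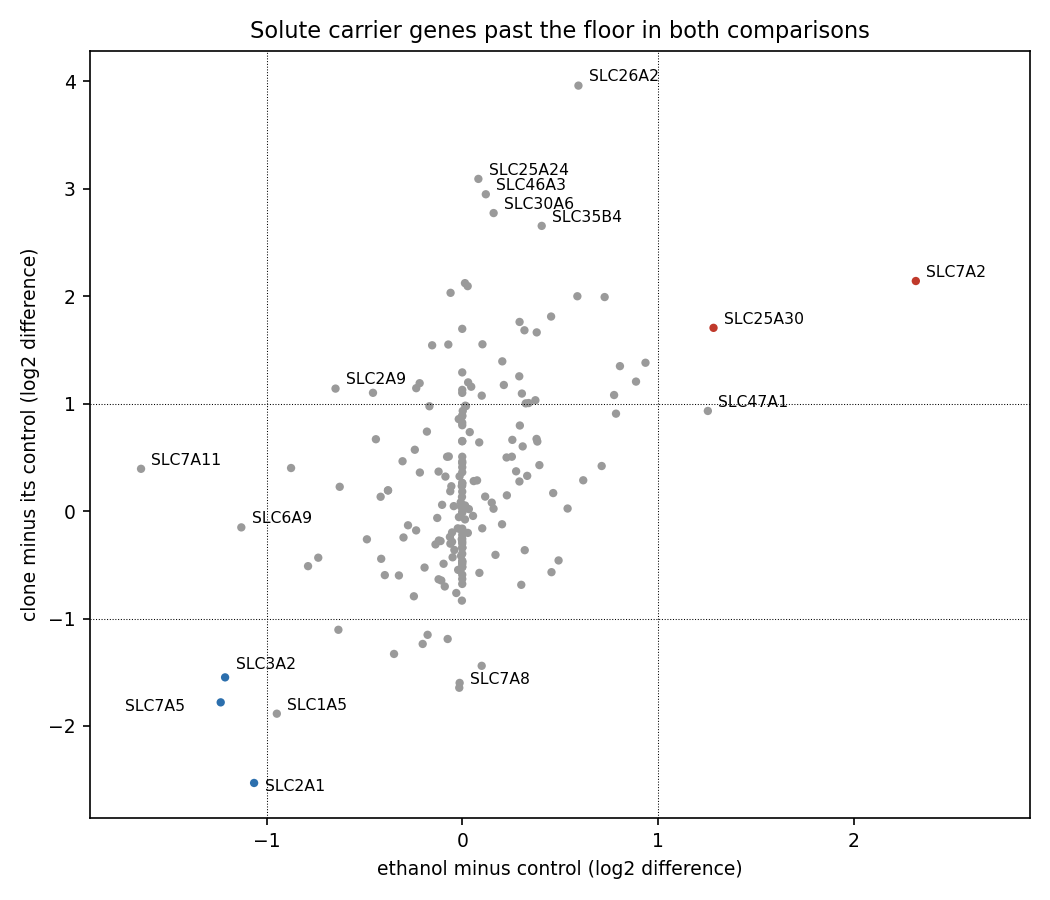
Each dot is 1 of the 191 solute carrier genes past the floor in both comparisons, with the log2 difference of ethanol from control on the x axis and of the clone from its control on the y axis, and dotted lines at 2-fold. SLC7A5, SLC3A2 and SLC2A1 (blue) lie past 2-fold at the lower left and SLC7A2 and SLC25A30 (red) at the upper right, while SLC26A2, at 3.96 in the clone, lies near 0.59 in ethanol.

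A list of 64 genes outside the family was followed by symbol, with ABC family genes, organic anion transporting polypeptides, Na,K-ATPase beta subunits and partner proteins. The ABC genes include pseudogenes as well as ABCE1 and ABCF genes, which are not membrane transporters. No ATP1A gene was in the list. In ethanol 1 of 35 past the floor was at least 2-fold higher and 1 was lower, 2.86% each and near the 2.63% and 2.44% of all genes. In acetaldehyde 1 was higher, 2.86% beside 1.03% of all genes, and 0 were lower, beside 0.0536%. In the clone 5 of 35 were higher, 14.3% beside 14.7%, and 3 were lower, 8.57% beside 5.83%. SLCO2A1, the prostaglandin carrier, was 58.4 in the control, 338 in ethanol and 154 in acetaldehyde, and went from 77.5 to 427 in the clone. ABCA12, which loads lipid into epidermal granules, was 1300 in the control, 183 in ethanol and 962 in acetaldehyde, and went from 338 to 94.5 in the clone. MPC2, a subunit of the mitochondrial pyruvate carrier, was 740, 704 and 791 in the first table and fell from 1232 to 477 in the clone.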

How the data were processed

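The authors deposited linear intensity values, and the submitters' processing notes name RMA, with no version given in the sources used here. This method subtracts background, brings arrays to 1 distribution by quantiles and summarises the probes of a set. The values came in 2 tables of 33297 probe sets, which were treated as normalised separately. The median intensity was 70.0, 70.2 and 70.6 on the control, ethanol and acetaldehyde arrays, and 94.0 and 89.9 on those of the clone's control and the clone. The number of arrays, 1 per group, limits the precision.

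Probe sets were named through the platform annotation of each design. A single symbol was listed for 19181 probe sets of the table of 3 arrays and 19460 of the other, several symbols for 2055 and 1754, and no entry for 12061 and 12083. All 378 solute carrier symbols matched the RefSeq names of GRCh38.p14. Probe sets with several symbols were not used, which leaves out 38 and 12 with a solute carrier symbol. The annotations differ, so a probe set can have 1 symbol in a table and several in the other. The brightest probe set by mean log2 intensity stood for a gene, which mattered for 10 solute carrier genes in each table. The log2 of each value was taken and differences were computed within a table with Python 3.11.15, pandas 2.3.3 and numpy 2.4.6. A gene counted where the higher of the arrays compared reached the median of its table. The floor is that median and not a measured background. A fold against an array under it is a lower bound, the brighter value divided by the floor. Carriers were put in transport classes by family number, and SLC51A and SLC51B were added to a class after the data were seen.

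The members, lists and rules were chosen with earlier results of these data known. Genes were named by rule: the 10 furthest each way at 2-fold or more from control, the 6 furthest each way between acetaldehyde and ethanol, those shared between comparisons, the 6 most opposite, up to 4 per class, and some by name. Outside it, SLC7A1, SLC35D2, SLC45A4, SLC39A10, SLC39A13, SLC39A14 and the transporters of other families were named after their values were seen, as were the genes next to the floor. The calculations were tested on simulated data. Alternatives covered the floor, the fold, the probe set of a gene, centring, a lowess correction for brightness with statsmodels 0.14.6 and quantile normalisation again.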

Additional observations from a re-analysis of the deposited data

Results flagged for a closer look

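SLC2A9, which carries urate, was on opposite sides of its controls in the comparisons that share no array. Its intensity was 312 in the control, 199 in ethanol and 248 in acetaldehyde, and 102 in the control of the clone against 224 in the clone. The log2 difference was -0.65 in ethanol and 1.14 in the clone. The difference between them was not tested, since each group is 1 array.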

How the results depend on the processing

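No paired analysis was possible because each group is 1 array, and no array could be left out for the same reason. No 2-fold difference of a named gene reversed under the alternatives listed here, while the carriers' median in the clone, which is near 0, changed sign. With the floor at the 75th percentile of each table, carriers at least 2-fold higher numbered 1 in ethanol, 0 in acetaldehyde and 1 in acetaldehyde against ethanol, and those lower 0 in acetaldehyde and 9 in the clone, over fewer genes. The median log2 difference of carriers in the clone was -0.19 with no floor, 0.33 with the floor at the 75th percentile and 0.16 after centring on the median of all probe sets, which lay at -0.17, beside -0.01 as reported. At 1.5-fold the numbers higher and lower were 13 and 16 in ethanol, 1 and 4 in acetaldehyde, 67 and 29 in the clone, and 9 and 4 in acetaldehyde against ethanol. At 3-fold they were 1 and 2, 0 and 0, 18 and 5, and 1 and 0. Raising dim values to the floor left 1 carrier higher in acetaldehyde against ethanol, and put SLC47A1 and SLC6A14 in ethanol at 0.85 and -0.86 and SLC7A2 in the clone at 0.91, each under 2-fold. Quantile normalisation again gave 3 lower in acetaldehyde against ethanol. The higher share of the clone's 2-fold carriers was 75.4% as deposited and 82.8% after centring. Of the log2 differences of named genes, 8 fell under 2-fold and 9 reached it over these settings. Dim genes limit the folds, since 18 of 43 higher carriers in the clone rest on a control value under the floor.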

Other observations

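Some probe sets carry a solute carrier symbol together with another gene and were left out of the counts above. A probe set of SLC43A3 and PRG2 went from 124 in the control of the clone to 1589 in the clone, and a probe set of ROS1, LRIG3 and SLC34A2 went from 150 to 3270. A probe set of SLC46A1, the proton-coupled folate carrier, and SARM1 was 441 in the control, 219 in ethanol and 379 in acetaldehyde. These values cannot be given to 1 gene. A probe set of SLC25A32 and DCAF13 was 2759 in the control and in ethanol and 2637 in acetaldehyde. This is the probe set that the annotation of the other table gives to SLC25A32 alone, and whose value in the clone is reported above. The same holds for the probe set of SLC46A1 and SARM1, which is counted as SLC46A1 for the clone, and for that of SLC43A3 and PRG2, which is counted as SLC43A3 among the 3 arrays. In all, 15 genes past the floor in the table of the clone and 2 in the other rest on a probe set with several symbols in the other annotation, and 3 of the 15, SLC25A32, SLC35F6 and SLC25A5-AS1, differed by 2-fold.

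Of 200 carriers past the floor in the table of 3 arrays, 27 had equal values on all 3 arrays within 1e-06 on the log2 scale, 13.5% beside 26.0% of all genes.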
